A study of Mus musculus with 15 samples.

Results

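The collagen genes are the genes whose symbol reads Col, a number, a and a number, with nothing after it. The deposited table of quadriceps RNA holds 38 of them among 14272 named genes, and all 38 passed the filter on low values (at least 1 CPM, the unit of reads scaled to library size, in at least 5 libraries). The annotation of the mouse genome holds 44 such symbols. The other 6 (Col2a1, Col6a4, Col9a1, Col9a2, Col9a3 and Col26a1) were not analysed here. The 38 genes fall into 8 classes, with 10 fibrillar, 6 basement membrane (type IV), 5 type VI, 6 FACIT, 2 multiplexin, 4 transmembrane and 3 short-chain network genes, and 2 others (Col7a1 and Col28a1).

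All libraries came from the quadriceps of male DBA/2J-mdx mice, a strain that lacks dystrophin and serves as a model of Duchenne muscular dystrophy, so every group, the controls included, carries the mdx allele. Mice of the vehicle group had intraperitoneal injections of DMSO 7 times a week. The glucocorticoid prednisone (1 mg/kg, by the same route) replaced 1 of the 7 injections in the weekly group, which had vehicle for the other 6, and all 7 in the daily group. Each group has 5 libraries, and the labels give the age as 6 months in the protocol and about 7 months in the sample description. They do not state whether each library is a different animal. The p-values below therefore rest on the spread among the deposited samples, which may be technical. No healthy muscle is part of the comparison, and the length of treatment is not given in these sources.

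Collagens are proteins of the extracellular matrix in which 3 chains wind into a triple helix. Fibrillar collagens assemble into the tensile fibres that accumulate in the endomysium of dystrophic muscle, where fibroblasts and fibro-adipogenic cells make most of them. Type IV collagen forms the network of the basement membrane around muscle fibres and capillaries, and type VI collagen forms beaded filaments that link that membrane to the interstitial matrix. FACIT collagens sit on the surface of fibrils, and multiplexins lie in basement membranes, mostly of vessels.

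A pair of libraries stood apart before any comparison. Depth was between 2780768 and 11052552 reads, and the shallowest library was weekly 4, which had 0.567% of its reads in the mitochondrial ribosomal RNA mt-Rnr2 against 6.22% to 9.41% in the other weekly libraries and 12.6% to 13.4% in vehicle. Daily 3 had 20.5% of its reads in Gm26924, a ribosomal RNA-related transcript, which lowers the CPM of other genes, and it was the lowest daily library for 34 of the 38 collagen genes and for 84.1% of all genes. The vehicle libraries lay close together: the chi-square of a pair of libraries, per degree of freedom, was 1.54 to 2.17 there, above counting noise, against 23 to 111 among weekly and 5.65 to 280 among daily libraries. Each library was counted as a sample, and results that rest on weekly 4 are given with and without it.

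For orientation, the 150 bases before the RefSeq start (GRCm38.p6) are shown for 4 collagen genes whose levels differed between groups, a fibrillar gene with no motif match beside a type V pair and a vascular multiplexin. Capitals mark a match to CCAAT or to GGGCGG on either strand, and lower case marks all other bases.

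Col24a1, chr3:145292322-145292471, plus strand: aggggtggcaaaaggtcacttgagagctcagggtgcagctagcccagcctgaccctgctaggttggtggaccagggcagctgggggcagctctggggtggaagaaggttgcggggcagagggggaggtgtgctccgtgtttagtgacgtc
Col5a3, chr9:20815068-20815217, minus strand: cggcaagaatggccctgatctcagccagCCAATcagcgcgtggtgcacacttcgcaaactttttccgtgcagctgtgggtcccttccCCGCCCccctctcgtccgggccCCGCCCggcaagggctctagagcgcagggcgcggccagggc
Col5a1, chr2:27886275-27886424, plus strand: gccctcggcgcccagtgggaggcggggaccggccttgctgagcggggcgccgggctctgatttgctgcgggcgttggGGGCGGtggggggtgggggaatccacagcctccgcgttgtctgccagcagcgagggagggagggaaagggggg
Col15a1, chr4:47207862-47208011, plus strand: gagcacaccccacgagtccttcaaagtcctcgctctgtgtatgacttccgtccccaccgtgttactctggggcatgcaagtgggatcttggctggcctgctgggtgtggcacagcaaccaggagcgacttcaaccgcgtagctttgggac

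Col5a3 held CCAAT beginning 122 bases before its start and the GC-box letters, read as CCGCCC, at 63 and 41 bases before it. Col5a1 held GGGCGG at 73 bases. Over windows of 300 bases (250 before and 50 after the start), RefSeq promoters matched 32 collagen genes in 34 windows. GGGCGG, searched on both strands, was in 61.8% of these windows and in 35.7% of all 32851 promoters. CCAAT was in 32.4% against 37.4%, and TATAAA was in 14.7% against 13.6%. The palindromic glucocorticoid response element (AGAACA, 3 bases of any kind, TGTTCT) was in 0 of the 34 collagen windows and in 0.00913% of all promoters. Such matches describe letters in these windows only.

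In vehicle muscle, the collagen transcripts took 0.341% to 0.372% of all reads. Per kilobase of transcript, Col3a1 (type III) stood highest at a mean of 146 CPM per kb, followed by the type I chains Col1a2 at 94.7 and Col1a1 at 70.4. The ranges of these 3 over the 5 vehicle libraries did not overlap. Col4a1 came next at 39.3, and then Col6a2 at 29, Col6a1 at 27.1, Col6a3 at 27 and Col4a2 at 25.7, and the ranges of these last 4 overlapped from each to the next. The type V chains Col5a2, Col5a3 and Col5a1 stood at 21.6, 18.7 and 14.2 CPM per kb. Col14a1 (13.3) and Col15a1 (11.6) led the remaining classes, and 7 genes were below 1 CPM per kb (Col6a5, Col25a1, Col4a4, Col28a1, Col17a1, Col4a3 and Col4a6, at 0.506 to 0.136). The type IV chains thus ranged, per kilobase, from among the highest collagens (Col4a1, Col4a2) to the lowest (Col4a6).

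Both prednisone schedules went with more collagen reads than vehicle in most libraries, and the make-up of those reads shifted. The summed share of reads was 0.405%, 0.45%, 0.58%, 3.56% and 0.554% in weekly 1 to 5 and 0.487%, 0.525%, 0.342%, 0.559% and 0.591% in daily 1 to 5. Weekly 4 held several times the collagen share of any other library, and daily 3 was the only prednisone library inside the vehicle range. Within the collagen reads, Col1a1 took 11.6% to 11.8% in vehicle, 12.8% to 15.4% in weekly without weekly 4 (21.7% in weekly 4) and 17.2% to 19.6% in daily. These 3 ranges did not overlap. The pair Col4a1 and Col4a2 took 11.5% to 12% in vehicle, 14.5% to 17.8% in weekly without weekly 4 (6.39% in weekly 4) and 10.4% to 13.7% in daily. The type VI genes took 14.3% to 14.8% of the collagen reads in vehicle, 9.13% to 14% in weekly and 10.4% to 11.1% in daily. Col14a1 took 2.32% to 2.51% in vehicle, 0.6% to 1.51% in weekly and 0.962% to 1.16% in daily, so both lay lower in every prednisone library. Shares of a sum depend on each other, and they were not tested.

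The library weekly 4 moved the collagens as a set. Its CPM was above that of every other weekly library for 31 of the 38 genes, against 42.2% of all genes. The ratio of weekly 4 to the median of the other weekly libraries had a median of 3.05 over the 38 genes (0.525 for Col25a1 to 10.9 for Col1a1) and of 1.07 over all genes. For all genes 0.5 CPM was added to both values before the ratio was formed, and for the collagen genes it was not. The fibrillar class had a median ratio of 7.66, and all 10 of its genes were highest in weekly 4. Type VI had a median ratio of 4.3, the FACIT class 2.32 and the basement membrane class 1.93. Col24a1, a fibrillar gene of low level, was the least raised of its class at 1.92. Markers of other cells moved in the same library. The sum over 8 macrophage markers was 1598 CPM in weekly 4 and 188 to 488 in the other weekly libraries. For 6 tendon markers the sum was 599 against 194 to 451, and Thbs4 alone held 477 CPM of it. Scx, Mkx and Comp were also highest in weekly 4, but Fmod (57.5 CPM) and Tnmd (6.47) were below weekly 3 (83.2 and 8.66). The sum over 10 fibroblast and fibro-adipogenic markers was 1323 against 679 to 1315, and Dcn, a proteoglycan of fibroblasts, was at 96.4 CPM there. That is below all 5 vehicle libraries, but so were weekly 1 (85.2 CPM), weekly 2 (154), weekly 5 (162) and every daily library. A low Dcn therefore does not set weekly 4 apart. The part of these cells and of depth in the weekly 4 values was not tested. In bulk tissue, fewer cells of a type and less RNA per cell cannot be told apart.

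**Figure D1:**
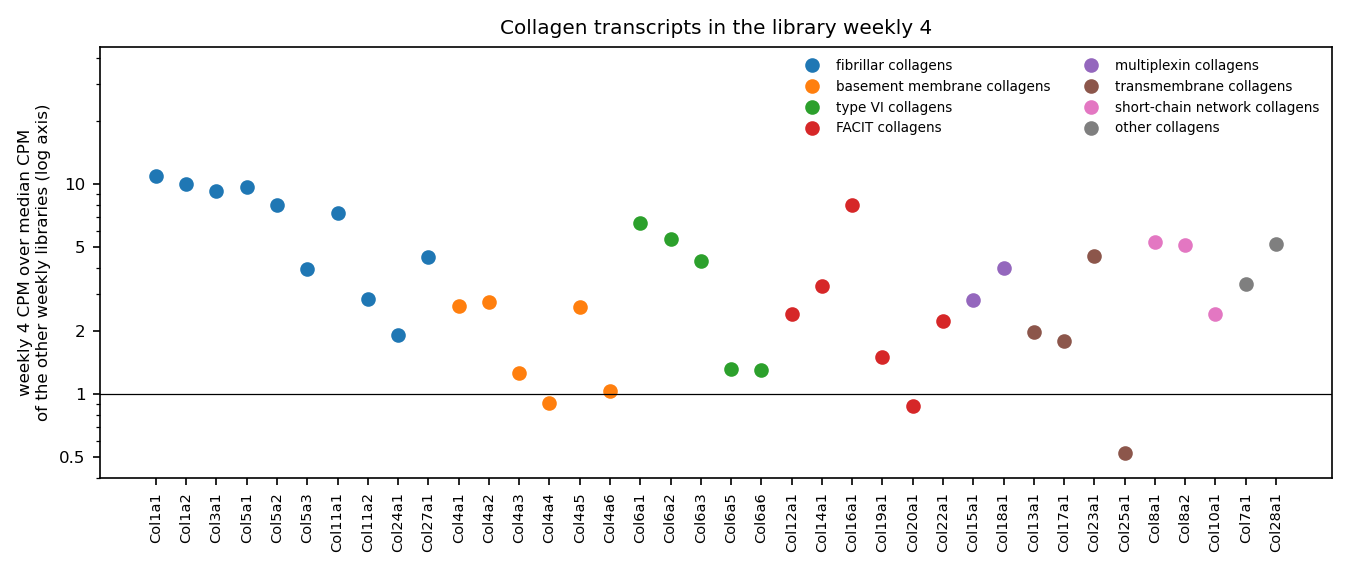
CPM of each of the 38 collagen genes in weekly 4 over its median in the other 4 weekly libraries, on a log axis and coloured by class. A value of 1 (line) is no difference: Col1a1 stands at 10.9 and Col25a1 at 0.525, and all 10 fibrillar genes are above 1.

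Whether weekly prednisone changed collagen transcripts was asked first. With all libraries, 6 of 38 collagen genes rose and 0 fell against vehicle at an adjusted p under 0.05 (limma, Benjamini-Hochberg over 14059 genes), where 6.99% of all genes rose and 1.07% fell. The 6 were Col1a1, Col5a3 and Col24a1 (fibrillar), Col4a1 and Col4a2 (basement membrane) and Col15a1 (multiplexin), and none was a type VI or FACIT gene. At an unadjusted p under 0.05, 17 of the 38 were higher and 0 were lower. On recovered whole reads, edgeR and DESeq2 each called 7 higher and 0 lower, but not the same 7. Col1a1 and Col3a1 were called by edgeR alone, and Col18a1 and Col27a1 by DESeq2 alone. The shares of all genes in these settings are not given here, so these counts have no background beside them. Without weekly 4, 7 rose and 2 fell (9.39% and 1.83% of all genes): Col18a1 joined the genes that rose, and Col8a2 and Col14a1 fell. The median change over the 38 genes was 0.47 on the log2(CPM + 0.5) scale, used for every change below, beside 0.17 over all genes tested; without weekly 4 these were 0.20 and 0.15. With TMM scaling (a trimmed mean of ratios between libraries) the median of all genes came to 0.01, a shift of over 0.1, and 5 collagen genes rose and 0 fell (5.73% and 4.18% of all genes). With TMM scaling and without weekly 4, 8 rose and 6 fell (9.64% and 7.59%).

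Whether daily prednisone did so was asked next. With all libraries, Col24a1 rose and Col6a6 fell, 1 of 38 in each direction, and 1.76% and 2.13% of all genes rose and fell. The 3 groups share 1 estimate of the spread, and weekly 4 enters it: the standard error (SE) of Col1a1 in daily against vehicle was 0.45 with weekly 4 and 0.14 without it. Without weekly 4, 9 collagen genes rose and 3 fell, where 4.19% and 6.4% of all genes did. Of the 9, 6 were fibrillar (Col1a1, Col1a2, Col5a1, Col5a3, Col24a1 and Col27a1), 2 were Col4a1 and Col4a2, and 1 was Col7a1. The 3 that fell were Col6a6, Col8a2 and Col14a1. The median over the 38 genes was 0.24 in both settings, beside −0.08 over all genes. All 10 fibrillar genes had a positive change on the deposited scale (median 0.49) and with TMM scaling (median 0.58). With TMM scaling, Col5a3, Col24a1 and Col4a4 rose and Col6a6 fell (5.61% and 3.47% of all genes). With TMM scaling and without weekly 4, 17 rose and 3 fell (11.7% and 9.76% of all genes).

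Daily against weekly compares the schedules directly, and it shares both groups with the comparisons above. With all libraries, 0 collagen genes rose and 3 fell (Col15a1, Col4a1 and Col4a2), where 0.484% and 8.24% of all genes rose and fell. At an unadjusted p under 0.05, 1 of the 38 was higher and 9 were lower. On recovered whole reads, edgeR called 2 genes higher and 0 lower, and DESeq2 called 2 higher and 2 lower. For these counts and those at an unadjusted p, the shares of all genes are not given here. Without weekly 4, Col7a1 and Col24a1 rose and Col15a1, Col4a1, Col4a2 and Col6a6 fell (1.22% and 12.3%). With TMM scaling 2 rose and 0 fell (2.08% and 2.64% of all genes), and with TMM scaling and without weekly 4, 14 rose, 8 of them fibrillar, and 2 fell (6.48% and 7.01%). The all-gene median moved from −0.24 to 0.01 with TMM scaling. With all libraries 8 of the 38 collagen genes were higher and 30 lower on the deposited scale, and 14 and 24 with TMM scaling. Without weekly 4, 20 were higher and 18 lower, and 28 and 10 with TMM scaling.

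**Figure D2:**
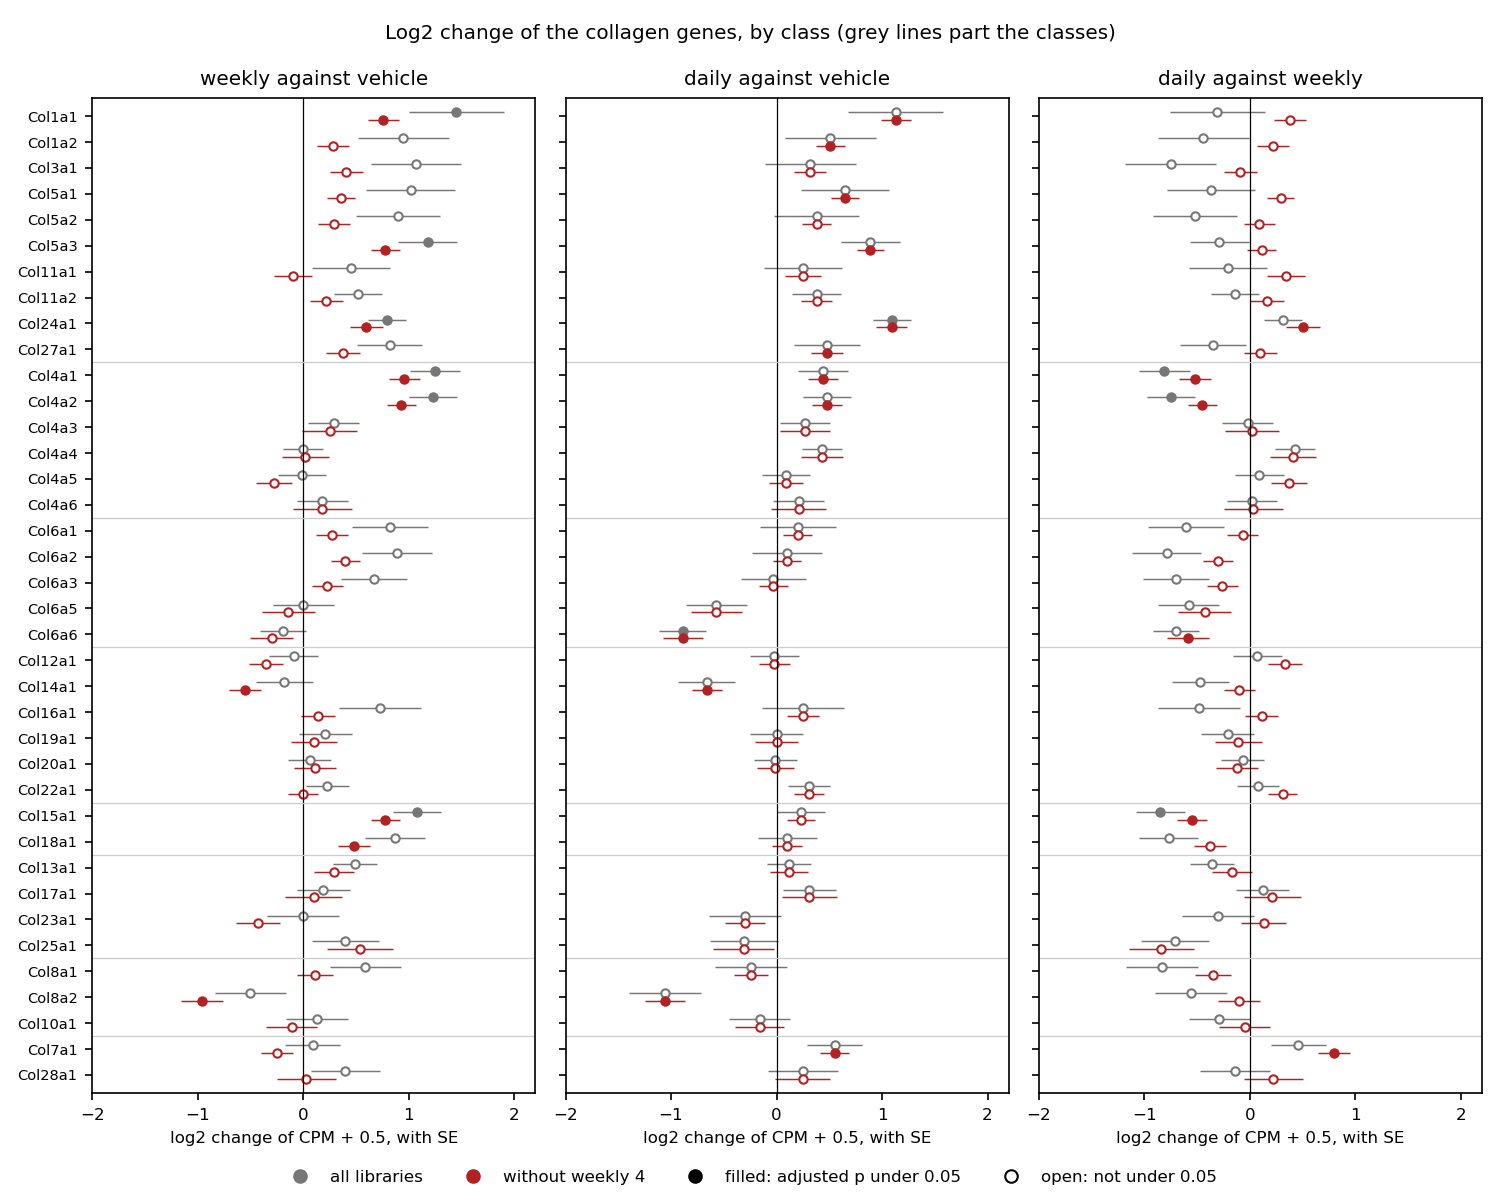
Log2 change (CPM + 0.5) with its SE for the 38 collagen genes in 3 comparisons, grouped by class, with all libraries (grey) and without weekly 4 (red). Filled points have an adjusted p under 0.05. In daily against vehicle the points coincide and only the SE shrinks, as for Col1a1 from 0.45 to 0.14.

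Among the fibrillar genes, Col1a1 encodes the chain that occurs 2 times in a type I molecule. Its level was 417, 426, 410, 395 and 439 CPM in vehicle 1 to 5, 621, 578, 864, 7723 and 794 CPM in weekly 1 to 5, and 839, 989, 631, 1094 and 1123 CPM in daily 1 to 5. All weekly and all daily libraries lay above all vehicle libraries, and 9 of the 38 collagen genes had weekly above vehicle with no overlap, where 11.8% of all genes did. The change was 1.45 (SE 0.45, limma adjusted p = 0.0493) in weekly against vehicle and 0.76 (SE 0.15, adjusted p = 0.000383) without weekly 4. The first value is borderline: with TMM scaling it missed 0.05 (adjusted p = 0.09), as it did on leaving out weekly 3 (0.065), weekly 5 (0.0601) or any of the 10 vehicle and daily libraries (0.0588 to 0.0991). On recovered whole reads, edgeR called Col1a1 higher in weekly against vehicle and DESeq2 did not. Daily against vehicle gave 1.13 (SE 0.45, adjusted p = 0.19), and without weekly 4 the p was 1.09e-07. Daily against weekly gave −0.31 (adjusted p = 0.68) with weekly 4 and 0.38 (adjusted p = 0.088) without it.

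Col1a2, the partner chain, moved less. It stood at 497, 516, 503, 492 and 525 CPM in vehicle, 536, 552, 714, 6173 and 682 CPM in weekly and 660, 738, 500, 891 and 892 CPM in daily. Every weekly library was above every vehicle library, and daily 3 was inside the vehicle range. Its change was 0.95 (SE 0.43, limma adjusted p = 0.18) in weekly against vehicle, 0.28 without weekly 4 (adjusted p = 0.237), and 0.51 in daily against vehicle (adjusted p = 0.603, and 0.0129 without weekly 4). In daily against weekly it was −0.44 (SE 0.43, adjusted p = 0.522), and 0.22 without weekly 4.

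Col3a1, the chain of type III collagen, which co-assembles with type I in young or repairing tissue, was at 802, 825, 813, 747 and 861 CPM in vehicle. It was at 821, 1072, 1221, 10610 and 1240 CPM in weekly and 1017, 1041, 668, 1147 and 1311 CPM in daily. Weekly 1 lay within the vehicle range, and daily 3 lay below it. No comparison passed by limma on the deposited scale with all libraries: 1.07 (SE 0.43, limma adjusted p = 0.132) in weekly against vehicle, 0.41 without weekly 4 (adjusted p = 0.0875), 0.32 (SE 0.43, adjusted p = 0.762) in daily against vehicle and −0.75 (SE 0.43, adjusted p = 0.261) in daily against weekly. edgeR on recovered whole reads called Col3a1 higher in weekly against vehicle (1.63, adjusted p = 0.0485), and limma with TMM scaling and without weekly 4 called it higher in daily against vehicle (0.41, adjusted p = 0.00281). It also passed in both comparisons with vehicle when weekly 4 and daily 3 were left out (adjusted p = 0.00873 and 0.00382).

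The type V chains, which regulate the diameter of type I fibrils, differed among themselves. Col5a3 was at 125, 120, 106, 105 and 117 CPM in vehicle, 167, 184, 213, 786 and 229 in weekly and 220, 229, 147, 234 and 248 in daily. Both prednisone groups lay above vehicle without overlap; 4 of the 38 genes (Col1a1, Col5a1, Col5a3 and Col24a1) did so in daily, where 2.45% of all genes did. It rose by 1.18 (SE 0.28, limma adjusted p = 0.0116) in weekly against vehicle, and by 0.78 (SE 0.14) without weekly 4. For daily against vehicle the change was 0.89 (SE 0.28, adjusted p = 0.0847), and without weekly 4 its adjusted p was 3.7e-06. Col5a1 ranged over 108 to 127 CPM in vehicle, 134 to 1515 in weekly (134 to 172 without weekly 4) and 149 to 230 in daily, again without overlap with vehicle. It rose by 0.65 in daily against vehicle only without weekly 4 (SE 0.13, adjusted p = 0.000229; with weekly 4, adjusted p = 0.46). Col5a2, at 135 to 148 CPM in vehicle and 124 to 236 in daily, did not pass by limma on the deposited scale in these 2 settings. With only the 2 groups compared it rose in daily against vehicle. Without weekly 4 and daily 3 it rose in both comparisons with vehicle. With TMM scaling and without weekly 4 it rose in both daily comparisons.

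Col24a1 encodes a fibrillar collagen known from developing bone, and its level was low: 14.6, 11.7, 13.4, 11.2 and 13.3 CPM in vehicle, 21.6, 20.2, 19.4, 38.1 and 17.4 in weekly and 30.2, 30.6, 20.6, 28 and 31.3 in daily. Vehicle lay below both prednisone groups without overlap. It rose by 0.79 (SE 0.18, limma adjusted p = 0.0103) in weekly against vehicle and by 1.09 (SE 0.18, adjusted p = 0.000945) in daily against vehicle, and both calls held without weekly 4 (0.60 and 1.09). Without weekly 4 it also rose by 0.50 in daily against weekly (SE 0.16, adjusted p = 0.0274). Of the bone and cartilage markers, Sp7, Bglap, Ibsp and Acan are not among the genes analysed here, and Sox9, a factor of cartilage and matrix genes, was at 2.37 to 5.09 CPM in vehicle, 10.6 to 21.6 in weekly and 6.65 to 12.2 in daily. Runx2, a factor of bone cells, overlapped between the groups, at 4.1 to 6.78 CPM in vehicle, 2.8 to 10.1 in weekly and 6.07 to 9.14 in daily. The part of such cells in the Col24a1 change was not tested.

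Col27a1, a fibrillar collagen of cartilage, was at 12.6 to 18.5 CPM in vehicle and 16.6 to 25.2 in daily, and it rose by 0.48 without weekly 4 (SE 0.15, limma adjusted p = 0.0344). The cartilage-type chains Col11a1 and Col11a2 did not pass in any comparison on the deposited scale with all libraries or without weekly 4 alone. Col11a2 rose in daily against vehicle when weekly 4 and daily 3 were both left out. With TMM scaling and without weekly 4, Col11a2 rose in daily against vehicle, and both chains rose in daily against weekly. Col11a1 had 7.3 to 10.6 CPM in vehicle, 7.6 to 60.1 in weekly (7.6 to 10.1 without weekly 4) and 9.42 to 13.6 in daily.

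**Figure D3:**
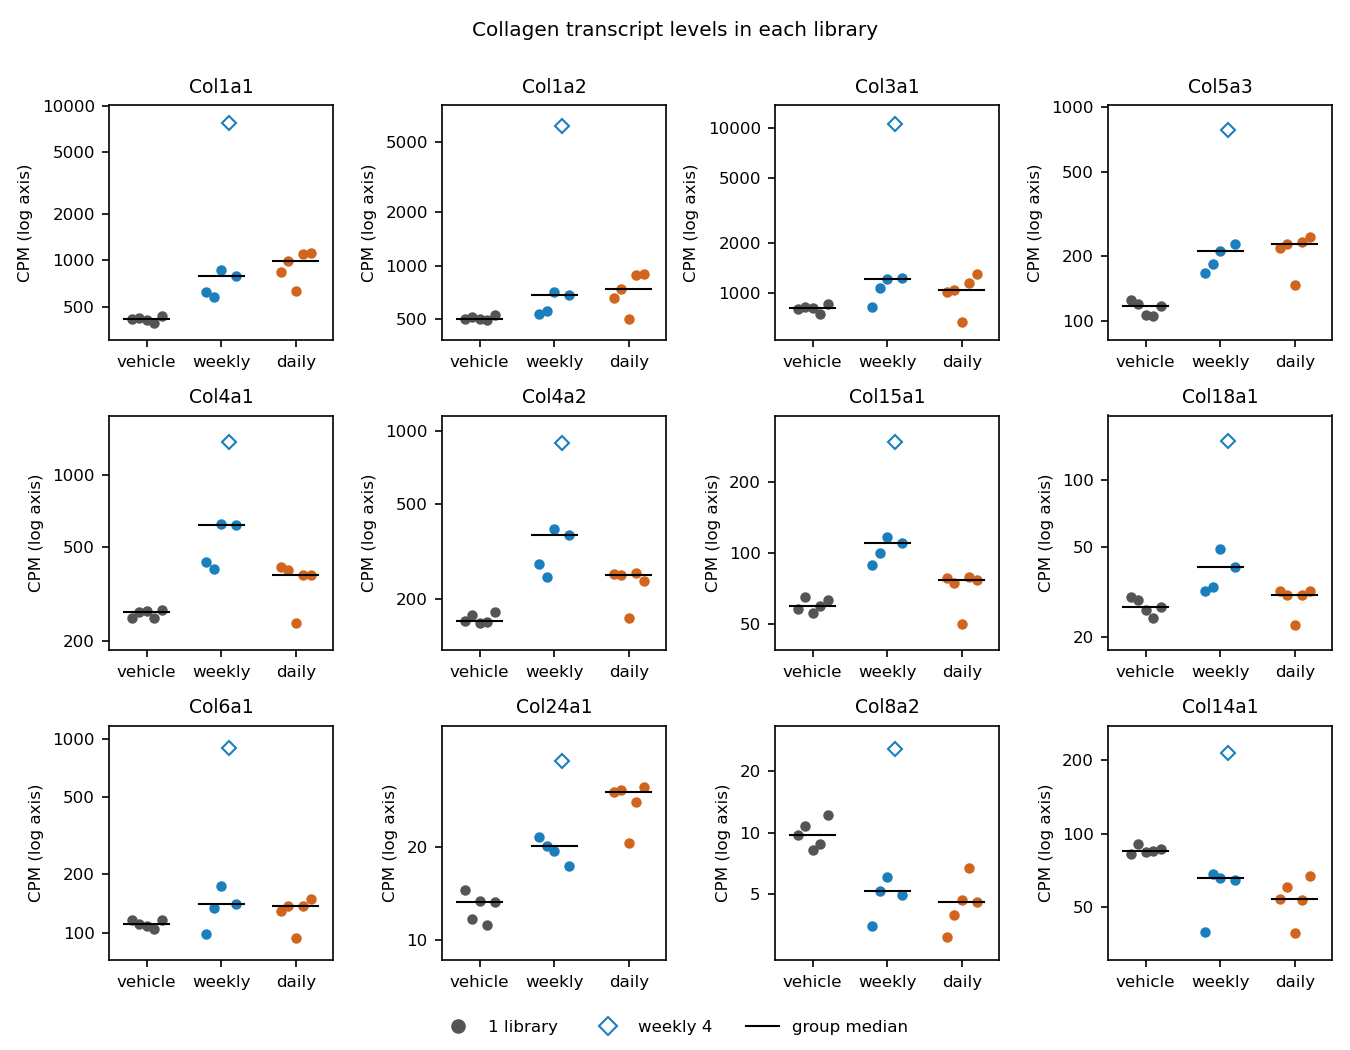
CPM of 12 collagen genes in each library, on log axes, with the group median as a line and weekly 4 as an open diamond. Col1a1, Col5a3 and Col24a1 have every prednisone library above vehicle; Col4a1, Col4a2 and Col15a1 are higher in weekly than in daily medians; Col8a2 and Col14a1 are lower in prednisone libraries apart from weekly 4.

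The basement membrane chains split by gene pair. Col4a1 and Col4a2, which form the main type IV network, lie head to head on chromosome 8 of GRCm38 (11198423 to 11312826 on the minus strand and 11312805 to 11449287 on the plus strand), and their annotated genes overlap by 22 bases. Col4a1 was at 250, 266, 268, 249 and 269 CPM in vehicle, 430, 404, 623, 1378 and 617 in weekly and 410, 400, 237, 378 and 379 in daily. Col4a2 was at 162, 171, 159, 161 and 176 CPM in vehicle, 279, 248, 391, 896 and 371 in weekly and 255, 253, 167, 257 and 237 in daily. Every weekly library was above every vehicle library for both genes, and daily 3 alone of the daily libraries fell within or under the vehicle range.

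Col4a1 rose by 1.25 (SE 0.24, limma adjusted p = 0.002) and Col4a2 by 1.23 (SE 0.23, adjusted p = 0.00206) in weekly against vehicle, and by 0.96 and 0.93 without weekly 4. In daily against vehicle the changes were 0.44 (adjusted p = 0.359) and 0.48 (adjusted p = 0.311), and they passed without weekly 4 (0.0356 and 0.0157). In daily against weekly both fell, by 0.81 (adjusted p = 0.0371) and 0.75 (adjusted p = 0.0477). Those 2 calls did not hold with TMM scaling (0.135 and 0.195), nor without daily 3 (0.124 and 0.148), nor when any 1 vehicle library, weekly 3, weekly 5, daily 4 or daily 5 was left out. Col4a2 also missed the threshold without daily 1 or daily 2. Endothelial markers were measured beside these 2 genes. The sum over 8 markers was 229 to 242 CPM in vehicle, 237 to 387 in weekly and 145 to 232 in daily. In weekly 4, where Col4a1 and Col4a2 were highest, the sum was 276 CPM. In daily against weekly 5 of the 8 markers fell, as 8.24% of all genes did. With TMM scaling, edgeR or DESeq2 it was 2 of the 8 (Cldn5 and Kdr), and with only the 2 groups compared it was 1 (Cldn5). Their part in the type IV changes was not tested.

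The minor type IV chains showed no called change on the deposited scale with all libraries or without weekly 4. Col4a3 and Col4a4, whose annotated starts lie 71 bases apart, were at 1.02 to 1.95 and 2.03 to 3.04 CPM in vehicle. Col4a4 was at 2.79 to 3.94 CPM in daily, above all weekly libraries (2.08 to 2.54), with a change of 0.43 in both daily comparisons (limma adjusted p = 0.242 against vehicle and 0.132 against weekly); it was the 1 collagen gene of 38 with daily above weekly and no overlap, where 0.235% of all genes did so. Col4a5, of the X-linked pair, was at 12.6 to 16.2 CPM in vehicle, 9.55 to 31.6 in weekly and 12.2 to 19 in daily, and Col4a6 stayed under 1.6 CPM in every library. None of these 4 chains passed with or without weekly 4 on the deposited scale. When weekly 4 and daily 3 were both left out, Col4a5 rose in daily against weekly. Col4a4 passed in both daily comparisons with TMM scaling (limma adjusted p = 0.0482 and 0.0199). With TMM scaling and without weekly 4, Col4a5 fell in weekly against vehicle and rose in daily against weekly. At a few CPM a value rests on few reads: 3 reads were worth between 0.271 and 1.08 CPM.

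The multiplexins Col15a1 and Col18a1, components of the capillary and muscle basement membrane, were likewise highest in weekly. Col15a1 was at 57.7, 65, 55.4, 59.4 and 63.3 CPM in vehicle, 89.2, 99.9, 117, 296 and 110 in weekly and 78.4, 74.2, 50, 79.3 and 76.6 in daily. The weekly libraries lay above all vehicle and all daily libraries, and 2 of the 38 genes (Col15a1 and Col18a1) had daily below weekly without overlap, where 6.98% of all genes did. Col15a1 rose by 1.08 (SE 0.23, limma adjusted p = 0.00475) in weekly against vehicle, and fell by 0.85 (SE 0.23, adjusted p = 0.0265) in daily against weekly, which was 0.107 with TMM scaling and 0.0935 without daily 3. Col18a1, which holds the endostatin fragment, was at 24.2 to 30.2 CPM in vehicle, 32 to 149 in weekly and 22.6 to 32 in daily. Its change of 0.87 in weekly against vehicle had an adjusted p of 0.053, and it rose by 0.48 without weekly 4 (adjusted p = 0.0283).

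None of the 3 main type VI chains passed the limma test on the deposited scale in any comparison, with all libraries or without weekly 4. With TMM scaling and without weekly 4, Col6a2 rose in weekly against vehicle (0.25, limma adjusted p = 0.0382) and Col6a1 in daily against vehicle (0.29, adjusted p = 0.0204). Without weekly 1, Col6a2 and Col6a3 rose in weekly against vehicle (1.11 and 0.92, adjusted p = 0.0335 and 0.0474) and fell in daily against weekly (adjusted p = 0.0493 and 0.0418). Col6a1 was at 116, 111, 109, 104 and 116 CPM in vehicle, 98.4, 134, 175, 899 and 140 in weekly and 130, 138, 93.7, 138 and 149 in daily. Col6a2 was at 113, 111, 113, 115 and 121 CPM in vehicle, 118, 147, 191, 837 and 159 in weekly and 122, 136, 89.1, 135 and 141 in daily. Col6a3 was at 279, 275, 264, 262 and 284 CPM in vehicle, 218, 328, 404, 1481 and 361 in weekly and 260, 290, 190, 292 and 327 in daily. For all 3, the groups overlapped, and weekly 4 was the highest library.

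In weekly against vehicle the changes were 0.82 (SE 0.36, limma adjusted p = 0.169) for Col6a1, 0.89 (SE 0.33, adjusted p = 0.0974) for Col6a2 and 0.67 (SE 0.31, adjusted p = 0.189) for Col6a3. In daily against vehicle they were 0.20, 0.10 and −0.03 (adjusted p = 0.829, 0.914 and 0.979), and in daily against weekly −0.61, −0.79 and −0.70 (adjusted p = 0.269, 0.122 and 0.146). Col6a6, an alternative chain of the type VI family, was lower in daily: 15.6, 18.5, 15.9, 20.5 and 13.5 CPM in vehicle, 8.94, 15.5, 14.8, 19.8 and 15.6 in weekly and 8.03, 10.2, 5.27, 13.8 and 8.45 in daily. Daily 4 overlapped vehicle 5. It fell by 0.89 (SE 0.22, limma adjusted p = 0.022) in daily against vehicle, and the adjusted p was above 0.05 when any 1 of vehicle 2, vehicle 3, vehicle 4, daily 1 or daily 5 was left out. Col6a5, a related chain, was at 3.98 to 5.38 CPM in vehicle and 2.63 to 3.46 in daily without overlap, with a change of −0.57 (adjusted p = 0.317).

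Of the FACIT genes, Col14a1 (undulin), which binds to fibrils, was lower under prednisone apart from weekly 4. It was at 82.8, 91.2, 84.6, 84.7 and 86.4 CPM in vehicle, 39.6, 68.2, 66, 213 and 64.6 in weekly and 54.3, 60.7, 39.5, 53.8 and 67.2 in daily. All daily libraries were below all vehicle libraries, as 8.82% of all genes were, and so were 4 of the 5 weekly libraries. Without weekly 4, 9 collagen genes had weekly above vehicle and 2 (Col8a2 and Col14a1) had weekly below it with no overlap, where 16.1% and 3.17% of all genes did. The change was −0.18 (SE 0.27, limma adjusted p = 0.719) in weekly against vehicle, −0.55 (SE 0.15, adjusted p = 0.0104) without weekly 4, and −0.66 in daily against vehicle (adjusted p = 0.219, and 0.00113 without weekly 4). Col12a1, Col16a1, Col19a1, Col20a1 and Col22a1 did not pass by limma on the deposited scale with all libraries or without weekly 4. Their vehicle levels were between 5.97 and 70.3 CPM, and Col16a1 was the gene with the highest weekly 4 ratio of the class at 7.95. With TMM scaling and without weekly 4, Col12a1 fell in weekly against vehicle, and Col16a1 and Col22a1 rose in daily against vehicle. In that setting Col12a1, Col16a1 and Col22a1 rose in daily against weekly. Col22a1 also rose in both daily comparisons on the deposited scale when weekly 4 and daily 3 were left out.

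Col8a2, a chain of type VIII collagen of vessel and eye matrix, had the lowest log2 change of the 38 in daily against vehicle. It was at 9.74, 10.8, 8.24, 8.74 and 12.2 CPM in vehicle, 3.47, 5.16, 6.04, 25.9 and 4.9 in weekly and 3.05, 3.94, 4.65, 6.7 and 4.57 in daily. Weekly 4 was the only prednisone library above any vehicle library. The change was −0.50 (SE 0.34, limma adjusted p = 0.382) in weekly against vehicle and −0.96 (SE 0.20, adjusted p = 0.00068) without weekly 4, and −1.06 in daily against vehicle (adjusted p = 0.0926, and 7.44e-05 without weekly 4). Its partner chain Col8a1 was at 19 to 26.1 CPM in vehicle and 12.9 to 24.2 in daily, and did not pass by limma on the deposited scale with all libraries or without weekly 4.

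Col7a1, the anchoring fibril collagen of the skin, was at 59.2, 52.3, 54, 61.7 and 51.1 CPM in vehicle, 60.3, 44.2, 45.8, 151 and 39.1 in weekly and 87.4, 98.6, 53.4, 88.1 and 90.1 in daily. Daily 3 was within the vehicle range and the other 4 daily libraries were above it. It rose by 0.55 (SE 0.14, limma adjusted p = 0.00714) in daily against vehicle and by 0.80 (SE 0.15, adjusted p = 0.000183) in daily against weekly, both without weekly 4 (0.278 and 0.236 with it). The transmembrane genes Col13a1, Col17a1, Col23a1 and Col25a1, and Col28a1 and Col10a1, were at up to 9.62 CPM in vehicle, and none passed by limma on the deposited scale with all libraries or without weekly 4. With TMM scaling and without weekly 4, Col23a1 fell in weekly against vehicle.

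Ratios of genes within a library do not move with its scaling. They were formed from CPM without correction for length, and tested on the log2 scale by an exact two-sided permutation test of 5 against 5 libraries, where the smallest p is 0.00794, with p adjusted over 18 tests (6 ratios, 3 comparisons). The ratio of Col1a1 to Col1a2 was 0.839, 0.826, 0.814, 0.802 and 0.837 in vehicle, 1.16, 1.05, 1.21, 1.25 and 1.16 in weekly and 1.27, 1.34, 1.26, 1.23 and 1.26 in daily. Vehicle lay below all prednisone libraries, weekly 4 included. The log2 difference was 0.50 (SE 0.04, n = 5 a group, adjusted exact p = 0.0204) in weekly against vehicle, 0.63 (SE 0.02, adjusted exact p = 0.0204) in daily against vehicle and 0.13 (SE 0.05, adjusted exact p = 0.0357) in daily against weekly. Leaving out weekly 2 gave 0.09 (adjusted exact p = 0.0635) for the last comparison, and leaving out daily 1, daily 2, daily 3 or daily 5 likewise took its p above 0.05.

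The ratio of Col3a1 to Col1a1 fell in the same order. It was 1.92, 1.93, 1.98, 1.89 and 1.96 in vehicle, 1.32, 1.86, 1.41, 1.37 and 1.56 in weekly and 1.21, 1.05, 1.06, 1.05 and 1.17 in daily, so that no pair of groups overlapped. The differences were −0.38 (SE 0.09), −0.81 (SE 0.05) and −0.43 (SE 0.10) for weekly against vehicle, daily against vehicle and daily against weekly, each with an adjusted exact permutation p of 0.0204.

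For Col4a1 to Col4a2 the ratio was 1.53 to 1.68 in vehicle, 1.54 to 1.66 in weekly and 1.42 to 1.61 in daily. The differences were 0.02 (SE 0.03), −0.03 (SE 0.04) and −0.05 (SE 0.04), with adjusted exact permutation p of 0.579, 0.5 and 0.337. A p that misses the threshold does not show that the ratios are equal, but the differences were small beside those of the type I pair.

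Within type VI and type V, daily prednisone differed from vehicle. Col6a3 to Col6a1 was 2.39 to 2.53 in vehicle, 1.65 to 2.57 in weekly (1.65 in weekly 4) and 2 to 2.2 in daily, a difference of −0.23 (SE 0.03, adjusted exact permutation p = 0.0204) in daily against vehicle. Col5a1 to Col5a2 was 0.769 to 0.903 in vehicle and 0.91 to 1.21 in daily (0.27, SE 0.08, adjusted exact permutation p = 0.0204). Col6a1 to Col6a2 differed by 0.10 in daily against vehicle (SE 0.04, adjusted exact permutation p = 0.0476), with overlapping groups, and that p was above 0.05 when any of 10 libraries was left out (vehicle 2 to vehicle 5, weekly 2 and all 5 daily libraries). In weekly against vehicle these 3 ratios had adjusted exact permutation p between 0.286 and 0.352. Weekly 4 decides some of these values: without it, Col6a1 to Col6a2 differed by −0.13 in weekly against vehicle (adjusted exact p = 0.0476) and 0.23 in daily against weekly (adjusted exact p = 0.0143), and Col6a3 to Col6a1 differed by −0.19 in daily against weekly (adjusted exact p = 0.0143).

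**Figure D4:**
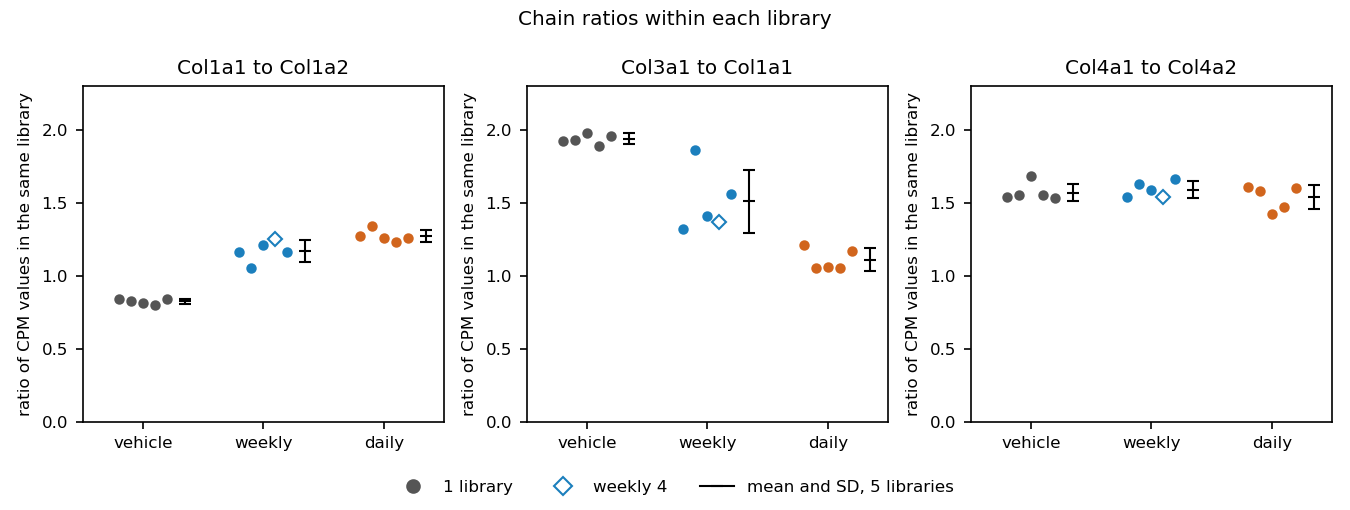
Ratio of the CPM values of 2 genes in the same library, by group, with the mean and SD of 5 libraries beside the points and weekly 4 as an open diamond. Col1a1 to Col1a2 is at 0.802 to 0.839 in vehicle and at least 1.05 in every prednisone library, Col3a1 to Col1a1 declines from vehicle to daily, and Col4a1 to Col4a2 keeps to 1.42 to 1.68.

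Genes that fold, process, break down or bind collagen were read from lists put together by function. Of 22 folding and modification genes, 6 rose and 0 fell in weekly against vehicle by limma, where 6.99% and 1.07% of all genes did. With TMM scaling 3 of the 22 rose (Plod2, P4ha1 and Plod1), and P4ha2, Plod3 and Serpinh1 did not pass. P4ha1 and P4ha2, subunits of prolyl 4-hydroxylase, rose by 0.59 (SE 0.13, limma adjusted p = 0.00919) and 0.51 (SE 0.13, adjusted p = 0.0199). Plod2, a lysyl hydroxylase, rose by 0.84 (SE 0.21, adjusted p = 0.0167), and Plod3 by 0.72 (SE 0.21, adjusted p = 0.035). Plod1 and the collagen chaperone Serpinh1 (HSP47) also rose; Plod1 missed the threshold without weekly 4. In daily against vehicle P4ha2 rose by 0.52 (adjusted p = 0.0241) and Plod2 by 0.82 (adjusted p = 0.0283), and in daily against weekly Serpinh1 fell by 0.85 (SE 0.25, adjusted p = 0.0382), where 8.24% of all genes fell. That last call was lost with TMM scaling, with edgeR, with DESeq2 and with only the 2 groups compared. Serpinh1 was at 53.1 to 62.5 CPM in vehicle, 66.6 to 265 in weekly and 41 to 69.4 in daily.

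Of 13 processing and crosslinking genes, Pcolce2, an enhancer of the procollagen C-proteinase, fell in both prednisone groups: from 5.36 to 7.23 CPM in vehicle to 1.33 to 3.52 in weekly and 2.35 to 3.74 in daily. It fell by 1.38 (SE 0.23, limma adjusted p = 0.000569) and by 1.05 (SE 0.23, adjusted p = 0.00832), and the groups did not overlap with vehicle. No other gene of this list passed by limma with all libraries; DESeq2 on recovered whole reads also called Sparc higher in weekly against vehicle. Without weekly 4, Adamts14, Loxl3 and Bmp1 rose and Loxl1 fell in daily against vehicle.

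Of 11 tested breakdown genes and inhibitors, Mmp9, a gelatinase, rose in weekly against vehicle from 1.24 to 1.77 CPM to 2.67 to 29.5 (2.22, SE 0.38, limma adjusted p = 0.000789), with Ctsk and Mmp3 (1.47 and 1.10, adjusted p = 0.00303 and 0.0156). Mmp9 and Ctsk fell in daily against weekly, by 1.92 (adjusted p = 0.00385) and 1.10 (adjusted p = 0.0262), the call of Ctsk being lost with TMM scaling and with only the 2 groups compared. Mmp13, a collagenase, was at 0 to 0.687 CPM in vehicle and 1.25 to 7.9 in daily; the change was 2.28 (SE 0.45, adjusted p = 0.00416). Of 8 collagen receptor genes, 0 passed in any comparison with all libraries by limma. At an unadjusted p under 0.05 in weekly against vehicle, daily against vehicle and daily against weekly, 1, 1 and 1 were higher. In the same order, 1, 1 and 2 were lower. On recovered whole reads, edgeR and DESeq2 each called 1 lower in weekly, 1 higher and 1 lower in daily, and 1 higher in daily against weekly. The shares of all genes in these settings are not given here.

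Markers of matrix-making cells were measured beside these changes. The sum over 10 fibroblast and fibro-adipogenic markers was 936 to 1022 CPM in vehicle, 679 to 1323 in weekly and 537 to 820 in daily. By this sum every daily library lay below every vehicle library. That was not particular to these cells: the sums of skeletal muscle fibre, pericyte and smooth muscle, tendon, adipocyte and erythrocyte markers did the same. The muscle fibre sum was 229630 to 234611 CPM in vehicle and 135042 to 214978 in daily. Endothelial, macrophage and Schwann cell sums overlapped, and the bone and cartilage sum was higher in daily. Gsn and Dcn held most of the fibroblast and fibro-adipogenic sum, with means of 562 and 194 CPM in vehicle and 396 and 128 in daily. Lum, Dpt, Pi16, Dpp4 and Clec3b also had lower means in daily than in vehicle, whereas Pdgfra, Ly6a and Mfap5 had higher means. Pdgfra, a marker of fibro-adipogenic cells, was at 64.6 to 74.7 CPM in vehicle and 51.9 to 81 in daily, and Dcn was at 187 to 206 and 105 to 160 CPM. Without weekly 4, Dpp4, Dcn, Gsn and Dpt were lower in daily against vehicle and no marker of the list passed as higher, while in weekly against vehicle Ly6a rose and Dpp4 and Dcn fell. With TMM scaling and without weekly 4, Mfap5 rose in daily against vehicle. Adipocyte markers, which also sit in fibro-adipogenic tissue, summed to 439 to 477 CPM in vehicle, 478 to 2315 in weekly and 137 to 313 in daily. The part of these cells in the collagen changes was not tested.

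A number of collagen genes share exon bases with another annotated gene, 11 of the 38, of which 8 have the partner on the opposite strand. Among those named above are Col4a1 and Col4a2 with each other, and Col5a1, Col15a1 and Col6a6 with non-coding genes. No source used here says whether the counting was stranded, so reads from such genes and their partners may not be told apart.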

How the data were processed

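RNA of 15 quadriceps libraries was prepared as stranded total RNA, per the labels' protocols. TopHat2 2.1.0, HTSeq, edgeR and the mm10 (GRCm38) build are named per the submitters' processing notes. Strand use in counting was not given in these sources. The deposited values are called RPKM by the authors, but they are CPM: 222090 of 222090 were whole multiples of the value of 1 read (within 0.01 reads), with 1 step per library for genes of any length. The 534 features without a gene name (0.276% to 0.447% of the values) were left out, as were 9 empty columns.

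The values log2(CPM + 0.5) of all 15 libraries were fitted with limma 3.58.1 (R 4.3.3) by group alone, for genes with at least 1 CPM in at least 5 libraries, with Benjamini-Hochberg adjustment over 14059 genes and a threshold of 0.05. Ratios were tested with an exact permutation test written for this purpose in Python 3.11.15. edgeR 4.0.16 and DESeq2 1.42.0 on recovered whole reads, TMM scaling, other pseudocounts and filters, a 2-group fit, a replicate block and leaving out each library were alternatives. The fits were also run on simulated counts with the same spread per gene in every group and no outlying library. That setting differs from these data, so it does not test how weekly 4 or daily 3 affects the calls. Positions are from GENCODE M21, promoters from RefSeq, and lengths per kb from the transcript with the longest coding sequence. The members and lists were chosen with earlier results of these data known. Named with change, SE and adjusted p by rule were the collagen genes called in a comparison and 8 chains of types I, III, IV and VI throughout, and from the other lists at most 4 called genes with the smallest p; other members are given by level.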

Additional observations from a re-analysis of the deposited data

Results flagged for a closer look

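In groups of 5 libraries, a highest or lowest value was marked when its gap to the nearest library, over the range of the group, passed Dixon's critical value of 0.71. Chance marks about 1 in 20 groups. Of 114 sets of 1 collagen gene in 1 group, 34 were marked, and 26 of these marks were a high value in weekly 4.

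The fibrillar genes marked in weekly 4 were Col1a1 (7723 CPM), Col1a2 (6173), Col3a1 (10610), Col5a1 (1515), Col5a2 (1451), Col5a3 (786), Col11a1 (60.1), Col11a2 (52.1), Col24a1 (38.1) and Col27a1 (94.9). The basement membrane and type VI genes were Col4a1 (1378 CPM), Col4a2 (896), Col4a5 (31.6), Col6a1 (899), Col6a2 (837) and Col6a3 (1481). The others were Col7a1 (151 CPM), Col8a1 (128), Col8a2 (25.9), Col13a1 (18), Col14a1 (213), Col15a1 (296), Col16a1 (199), Col18a1 (149), Col23a1 (28.4) and Col28a1 (4.67).

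Daily 3 was marked as low for 6 genes: Col4a1 (237 CPM), Col4a2 (167), Col5a3 (147), Col7a1 (53.4), Col15a1 (50) and Col18a1 (22.6). Col28a1 was marked as high in daily 5 (1.94 CPM) and Col4a4 in vehicle 2 (3.04 CPM). Of 18 sets of ratios, the ratio of Col4a1 to Col4a2 was marked as high in vehicle 3 (1.68).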

How the results depend on the processing

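Of 42 pairs of a named collagen gene and a comparison, 8 kept their direction and their side of the threshold under every alternative that gave an adjusted p. There were 26 alternatives per comparison and 1076 such values in total, so not every pair had a value under each alternative. For weekly against vehicle 6 collagen and 10 pathway genes were called, for daily against vehicle 2 and 4, and for daily against weekly 3 and 3. With TMM scaling and no weekly 4 these were 14, 20 and 16 (pathway 18, 17 and 12). In that setting and order, 9.64%, 11.7% and 6.48% of all genes rose and 7.59%, 9.76% and 7.01% fell. Without weekly 4 and daily 3 the counts were 15, 18 and 10 (pathway 17, 16 and 11). Shares of all genes are not given here for this and the other settings of this section. Their counts show how far the calls move and are not read as results about collagen genes. With only the 2 groups compared, daily against vehicle gave 13 and 13, and daily against weekly 0 and 1. In daily against vehicle TMM scaling gave 4 and 8, and edgeR and DESeq2 gave 8 and 10 pathway genes; a minimum of 5 CPM gave 7 pathway genes in daily against weekly. Leaving out 1 library gave 5 to 9, 1 to 12 and 0 to 9 collagen genes (12 without weekly 4, 9 without weekly 1, 0 without daily 3) and 5 to 17, 2 to 12 and 1 to 12 pathway genes. Directions that reversed, with the cause not tested, were as follows. Col14a1 in weekly against vehicle ranged over −0.55 to 0.05 when 1 library was left out (0.05 without weekly 1). Col6a3 in daily against vehicle was 0.06 with TMM scaling, with or without weekly 4, 0.10 without weekly 4 and daily 3, 0.07 with edgeR and 0.06 with DESeq2, and −0.10 to 0.10 when 1 library was left out. In daily against weekly, TMM scaling with no weekly 4 gave 0.62 for Col1a1, 0.46 for Col1a2, 0.15 for Col3a1 and 0.17 for Col6a1, and leaving out weekly 4 and daily 3 gave 0.51, 0.36, 0.06 and 0.05. Leaving out 1 library gave −0.56 to 0.38 for Col1a1 and −0.66 to 0.22 for Col1a2. Replicate numbers did not pair the libraries: same-numbered deviations correlated between −0.029 and 0.146, and at most 2 of 5 libraries correlated best with their own number. A replicate block gave 7, 3 and 4 collagen and 10, 3 and 4 pathway genes. For the ratios, an exact sign-flip permutation test with the replicate block cannot go below p = 0.0625, so no call is possible; the differences were 0.50, 0.63 and 0.13 for Col1a1 to Col1a2, −0.38, −0.81 and −0.43 for Col3a1 to Col1a1, and, in daily against vehicle, 0.10 for Col6a1 to Col6a2, −0.23 for Col6a3 to Col6a1 and 0.27 for Col5a1 to Col5a2. Leaving out 1 library gave 0.09 to 0.15 for Col1a1 to Col1a2 in daily against weekly, −0.13 to −0.04, 0.08 to 0.12 and 0.14 to 0.23 for Col6a1 to Col6a2, and −0.19 to −0.03 for Col6a3 to Col6a1 in daily against weekly.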
